A study of Mus musculus with 7 samples.

Results

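The SR and hnRNP splicing factors were examined in cells sorted from the hind-leg muscle of mice kept in normocapnia (room air) or in hypercapnia (air with 10% CO2). Members were taken by a rule on names, with no expression value in it, as every gene of the deposited expression table whose symbol begins with Srsf and a number or with Hnrnp. This gave 27 of 23930 genes, of which 10 were SR genes and 17 were hnRNP genes. Srsf3, Hnrnpa1, Hnrnpa3 and Hnrnpk were not analysed here. Normocapnia had 3 libraries, called NC1, NC2 and NC3, and hypercapnia had 4, called HC1 to HC4. The animals of both groups are labelled Inducible Pax7-GFP and C57BL, followed by a number that runs from C57BL/6 in NC1 to C57BL/12 in HC4, 1 step per library, so that the labels do not settle the substrain. In this system a CreERT2 driven from the Pax7 locus removes a STOP cassette in front of GFP, so that GFP marks cells that expressed Pax7 when tamoxifen was given, and their progeny. Tamoxifen was given from 12 weeks of age, exposure lasted 4 weeks and cells were collected at 16 weeks. By the methods of the study, tamoxifen was fed during the first weeks of the exposure itself. According to the methods of the study, muscle was injured with cardiotoxin 3 days before collection, which the sample labels do not state, while the title of the deposited table names 40 hours without saying what they refer to. The labels do not say whether each library came from a separate animal, so the p-values given here measure the spread between these libraries only.

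SR proteins carry RNA recognition motifs and a domain rich in arginine and serine, bind exonic enhancers and favour inclusion of the exon they bind. hnRNP proteins coat nascent transcripts, often bind silencers and in many settings counteract SR proteins. Many members of both families are known to hold down their own level by including a poison exon or retaining an intron, which sends the transcript to nonsense-mediated decay. The panel used here read a single short amplicon per gene, so a value counts transcripts that hold the amplicon and does not tell productive isoforms from decay isoforms.

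The 7 libraries held 14527445 to 23388710 reads. Values were reads per 1000000 reads of a library (RPM), so that 1 read was worth 0.0428 to 0.0688 RPM and a floor of 3 reads came to 0.128 to 0.207 RPM, which covers counting error only. Xist was at 445 RPM or more in NC1, NC2, HC1 and HC2 and at 0.125 RPM or less in NC3, HC3 and HC4, so that normocapnia without Xist was represented by NC3 alone. The Y-linked genes Ddx3y and Eif2s3y were at 56.5 to 206 RPM in NC3, HC3 and HC4 and at 0 in the other 4 libraries, and the labels give no sex. Correlations over genes were 0.827 to 0.887 among the normocapnia libraries and 0.925 to 0.993 among the hypercapnia libraries. Markers of satellite cells, the muscle stem cells that express Pax7, summed to 163 to 3611 RPM in normocapnia and 380 to 1245 RPM in hypercapnia, and 0 of 10 was called by limma, with 0 at an unadjusted p under 0.05. Pax7 was at 268 RPM in NC1, 8.25 RPM in NC2 and 4.34 RPM in NC3, against 20.1 to 79.5 RPM in hypercapnia. Macrophage markers summed to 12269 to 35012 RPM in normocapnia and 20100 to 24991 RPM in hypercapnia, above the satellite cell sum in each of the 7 libraries, with 1 of 10 called (Adgre1, higher) and C1qa at 0 in NC3 and HC3. Among the neutrophil, lymphocyte, endothelial, fibro-adipogenic, myofiber, red cell and dissociation stress markers, Mmp8 (neutrophils) and Atf3 (stress) were called, both higher. In bulk samples such as these, fewer cells of a type and less RNA per cell cannot be told apart.

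No shared direction was seen among the splicing factors in the fit reported. Of the 26 members averaging 10 RPM or more, 13 had a log2 difference above 0 and 13 below, and with median-of-ratios scaling (each library divided by the median ratio of its genes to their geometric means over libraries) 10 were above 0 and 16 below. In edgeR and in DESeq2 9 were above 0 and 17 below. In all, 1 member passed the call of an unadjusted limma p under 0.05 with a fold above 1.5, namely Srsf11, which was lower in hypercapnia. The same call took 5.54% of all genes averaging 10 RPM or more and 2.57% of all genes, so that 1 of 26 was near the background. No member passed an adjusted p of 0.05 in limma, edgeR or DESeq2, and 1 had an unadjusted p under 0.05 in each of these tools. The share of all genes at these p thresholds alone is not given here. In the simulated reads described below, a limma adjusted p under 0.05 found 0% to 10% of 2-fold changes. By family, 5 of 9 SR genes and 8 of 17 hnRNP genes had a difference above 0. The median log2 difference was 0.09 for these 9 SR genes (0.06 with Srsf12) and -0.06 for hnRNP genes, beside 0.13 for all genes averaging 10 RPM or more. Median-of-ratios scaling moved these medians to -0.05 (also -0.05 with Srsf12), -0.20 and -0.0057. For the 9 SR genes, the hnRNP genes and all genes they were -0.01, -0.20 and -0.06 in edgeR, and -0.05, -0.24 and -0.10 in DESeq2. With 3 libraries against 4, the smallest p an exact two-sided permutation test can give is 0.0571, so that such a test could not pass 0.05 for any gene. Means of different genes are RPM of different amplicons and are not read as relative amounts of transcript.

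**Figure D1:**
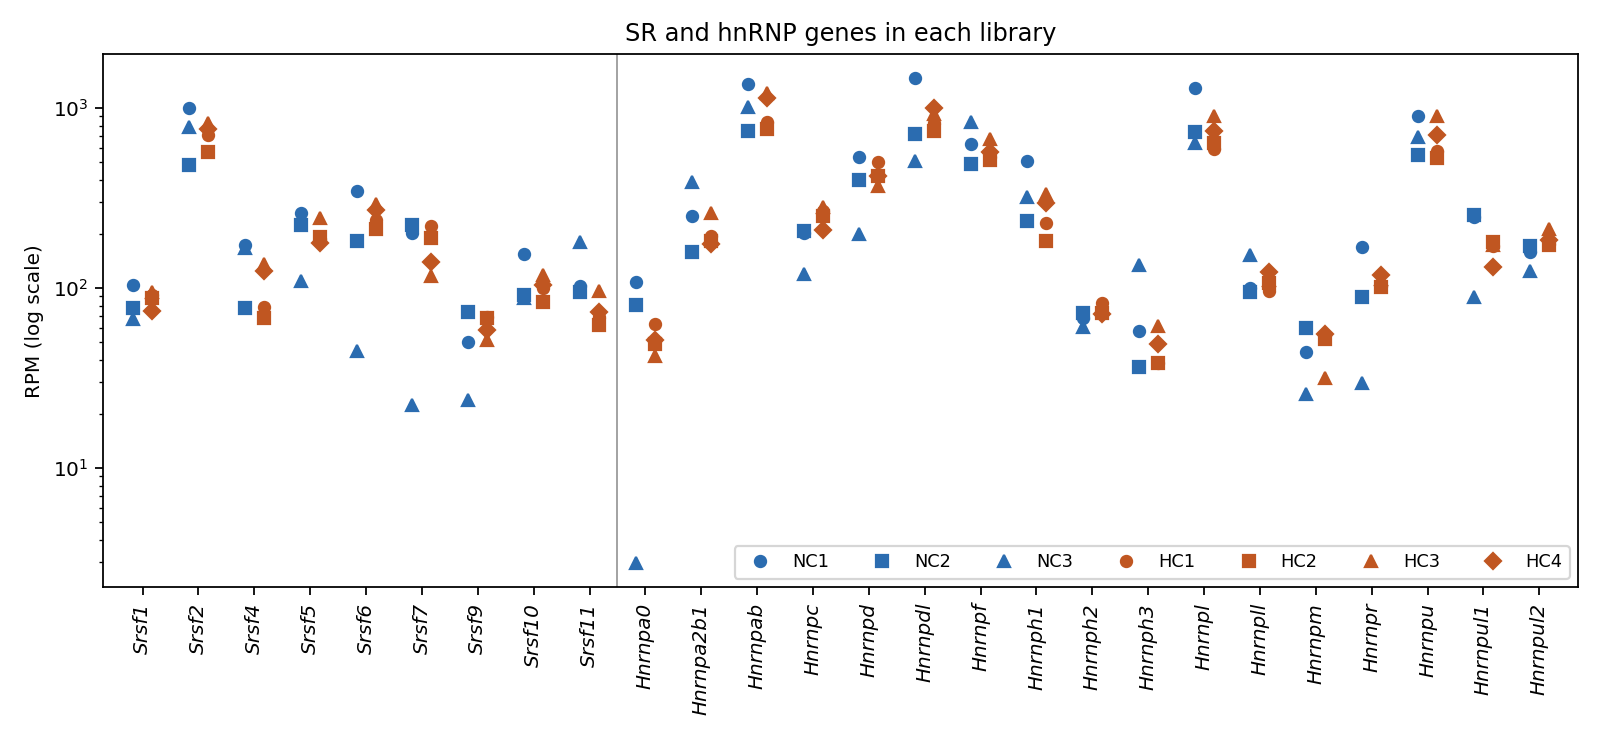
RPM (log scale) of the 26 members averaging 10 RPM or more, with 1 point for each of the 3 normocapnia and 4 hypercapnia libraries. The groups overlap for 24 of the 26 members, and the 2 exceptions are Hnrnpc and Hnrnpul2.

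**Figure D2:**
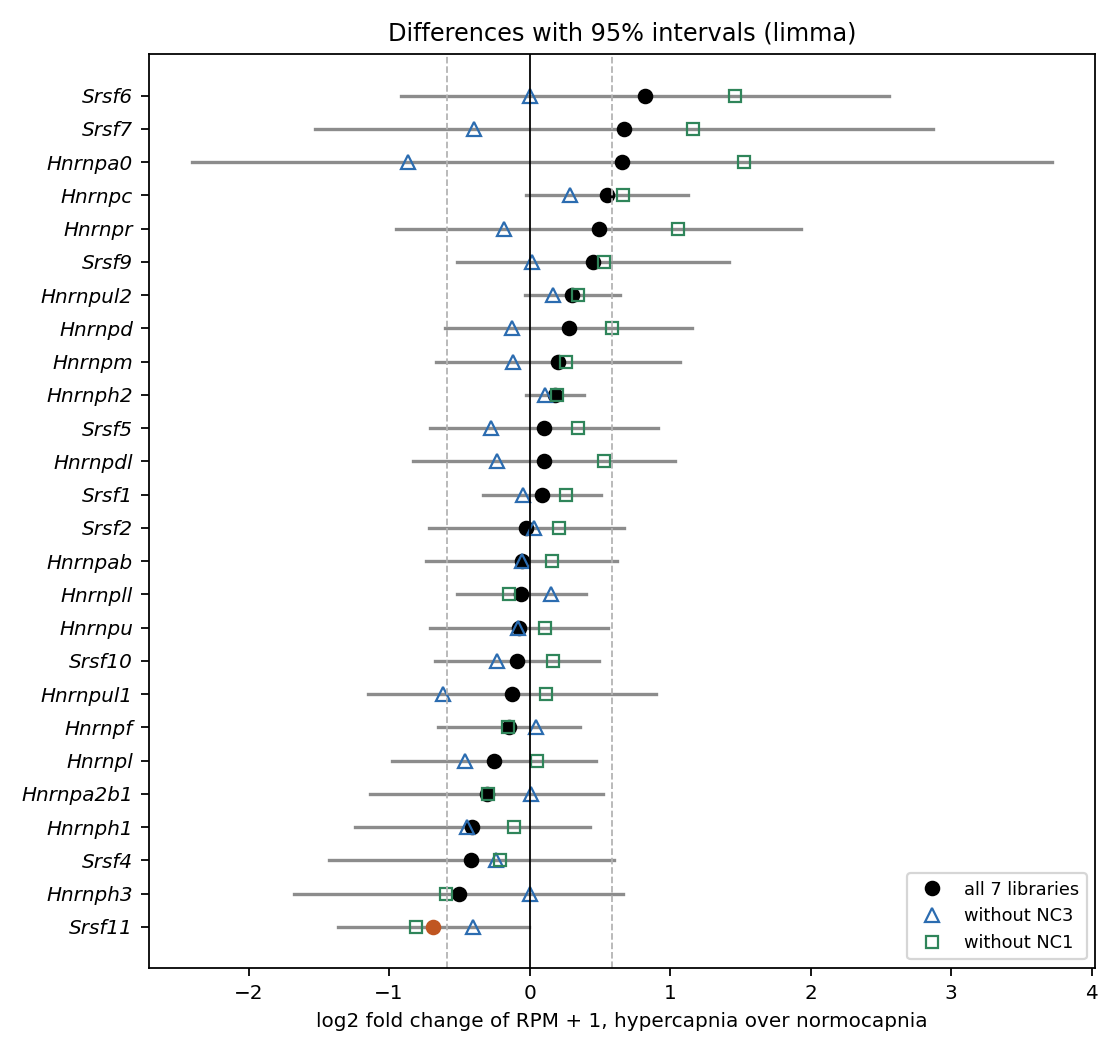
Log2 difference on the log2(RPM + 1) scale, hypercapnia minus normocapnia, for the members averaging 10 RPM or more, with limma 95% confidence intervals. Only the interval of Srsf11 (-1.37 to -0.01) lies on one side of 0.

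The widths of the intervals set what could be seen. For 11 of 26 members the 95% interval lay within a 2-fold change in either direction, and for 3 of 26 (Srsf1, Hnrnph2 and Hnrnpll) within a 1.5-fold change, so that for most members a difference of 1.5-fold was not excluded. Normocapnia was the more variable group for 26 of 26 members, as it was for 88.6% of all genes averaging 10 RPM or more. The median SD on the log2 scale was 0.58 in normocapnia and 0.21 in hypercapnia for the members, and 0.35 in normocapnia with NC3 left out.

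The sequences before the starts of Srsf11, Hnrnpc and Hnrnph2 are shown because the groups of these genes were apart in the same direction both among libraries with Xist and among those without, a choice made after their values were seen. The 250 bases before the first listed start were taken from RefSeq (GRCm38.p6). The promoter sequences used here covered 25 of the 27 members, all but Hnrnpul2 and Hnrnpll. Capitals mark a CCAAT box (CCAAT), a GC box (GGGCGG) or the core of an ETS site (CCGGAA) on either strand.
Srsf11, chr3:158036607-158036856, minus strand: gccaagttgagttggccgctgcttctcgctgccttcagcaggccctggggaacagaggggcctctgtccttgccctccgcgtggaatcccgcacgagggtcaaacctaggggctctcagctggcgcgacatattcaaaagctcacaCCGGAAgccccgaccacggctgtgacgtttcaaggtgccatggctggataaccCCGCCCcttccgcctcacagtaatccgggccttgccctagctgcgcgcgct
Hnrnpc, chr14:52104022-52104271, minus strand: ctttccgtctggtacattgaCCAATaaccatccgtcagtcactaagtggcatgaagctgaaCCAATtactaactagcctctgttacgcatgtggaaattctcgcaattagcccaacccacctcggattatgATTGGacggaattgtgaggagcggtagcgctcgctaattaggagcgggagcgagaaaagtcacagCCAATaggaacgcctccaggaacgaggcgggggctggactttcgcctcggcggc
Hnrnph2, chrX:134600929-134601178, plus strand: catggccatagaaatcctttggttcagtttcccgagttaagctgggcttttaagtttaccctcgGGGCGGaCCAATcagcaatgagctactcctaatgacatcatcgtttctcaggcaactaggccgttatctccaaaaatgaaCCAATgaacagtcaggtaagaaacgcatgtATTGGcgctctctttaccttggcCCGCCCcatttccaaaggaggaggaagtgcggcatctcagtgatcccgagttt

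Hnrnpc held 4 CCAAT boxes, at 54, 119, 189 and 230 bases before its start, and no GC box. Hnrnph2 held 3 CCAAT boxes, at 76, 106 and 179 bases, and GC boxes at 53 and 186 bases. Srsf11 held a GC box at 51 bases and an ETS core at 104 bases before its start. Over the 25 members, the GC box was found in 21 (84%), against 62.0% of the 6620 matched genes averaging 10 RPM or more and 32.9% of all 27025 genes with a promoter. The ETS core was found in 11 members (44%), against 24.4% and 12.2%, and the CCAAT box in 11 (44%), against 35.4% and 34.5%. A TATA box (TATAAA) was found in 2 members, Srsf2 and Hnrnpm (8%, against 6.40% and 13.0%). An E-box (CACGTG) was found in Hnrnpd alone (4%, against 8.91% and 6.05%), and a CRE (TGACGTCA) in 0 (against 2.76% and 1.62%). The median GC content was 63.6% in members, 60.4% in the matched genes averaging 10 RPM or more and 52% in all. These are matches of letters, and they do not show that a factor binds there.

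Among the classical SR genes, 0 of the 7 measured members passed the call or a limma p of 0.05, and 5 of them had a difference above 0. Srsf1, the founding member of the family, was at 104, 77.8 and 67.3 RPM in NC1, NC2 and NC3 and at 91.3, 87.9, 95.1 and 75.0 RPM in HC1 to HC4. The hypercapnia values lay inside the normocapnia range, and the log2 difference of 0.09 had a 95% interval of -0.33 to 0.51. Srsf2, which also takes part in transcription elongation, was at 1005, 485 and 784 RPM in normocapnia and 713, 572, 831 and 767 RPM in hypercapnia. Its log2 difference was -0.02 (95% interval -0.72 to 0.67). Srsf4 and Srsf5, each with a pair of RNA recognition motifs, differed by -0.41 (-1.43 to 0.60) and 0.10 (-0.71 to 0.91). The difference of Srsf4 was -0.21 without NC1, -0.24 without NC3 or HC2 and -0.79 without NC2.

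For Srsf6, Srsf7 and Srsf9 the NC3 library lay below the other 6. Srsf6 was at 347, 183 and 44.9 RPM in NC1, NC2 and NC3 and at 238, 213, 294 and 272 RPM in HC1 to HC4. Its log2 difference of 0.82 (SE 0.70) became 0.00 without NC3 and 1.46 without NC1. Srsf7, an export adaptor as well as a splicing factor, was at 202, 225 and 22.4 RPM in normocapnia, a 10.0-fold range, and at 222, 189, 116 and 140.5 RPM in hypercapnia. The hypercapnia values of Srsf7 sat between NC3 and NC2, and the log2 difference of 0.67 had an interval of -1.53 to 2.87. Srsf9 was at 49.9, 73.9 and 23.9 RPM against 69.5, 67.8, 51.2 and 58.8 RPM, a log2 difference of 0.45 (-0.52 to 1.42) that was 0.015 without NC3 and 0.81 without NC2.

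Of the SR-like genes, Srsf11 was the only member called. Srsf11, a nuclear factor of the SR-related kind, was at 102, 95.7 and 179.7 RPM in NC1, NC2 and NC3 (126 ± 46.7, SD, n = 3). It was at 69.3, 62.7, 96.5 and 73.9 RPM in HC1 to HC4 (75.6 ± 14.7, SD, n = 4). All hypercapnia values but HC3 lay below every normocapnia value, and HC3 lay just above NC2. The log2 difference was -0.69 (SE 0.27, limma p = 0.0484, exact permutation p = 0.114, adjusted p = 0.915). Without NC3, which was the highest library, it was -0.40 and no longer passed the call, and the call was also lost without NC1 (-0.81), HC1 (-0.65), HC2 (-0.60) or HC4 (-0.68). Within the libraries with Xist the difference was -0.58 and within those without it was -1.08. Srsf10, a repressor of splicing when it is dephosphorylated, differed by -0.09 (-0.68 to 0.50). Srsf12 was covered by 1 read in HC2 and 1 read in HC4 (0.050 and 0.068 RPM) and by none in the other 5 libraries, under the 3-read floor, and no fold is given for it. Its limma p was 0.217 and its adjusted p 0.915.

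Among the hnRNP genes, Hnrnpc was the one with the smallest p. The C proteins bind uridine tracts and form a tetramer that packages nascent RNA. Hnrnpc was at 202, 209 and 119 RPM in NC1, NC2 and NC3 (177 ± 49.8, SD, n = 3) and at 269, 251, 282 and 210.4 RPM in HC1 to HC4 (253 ± 31.1, SD, n = 4). The groups did not overlap, although HC4 exceeded NC2 by little. The log2 difference was 0.55 (SE 0.23, limma p = 0.0588, exact permutation p = 0.0571, adjusted p = 0.915), so that it did not pass the call. It was 0.29 without NC3, and it passed the call without NC2 (0.69). Groups that did not overlap were found for 2 of 26 members (7.69%), both higher in hypercapnia, beside 9.62% of all genes averaging 10 RPM or more.

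Hnrnpul2 was the other member without overlap. It belongs to the U family, large nuclear proteins with a SAP domain that bind DNA and RNA, and was at 159, 172 and 124 RPM in normocapnia (152 ± 24.9, SD, n = 3) and 175, 174, 213 and 184 RPM in hypercapnia (187 ± 17.8, SD, n = 4). HC2 exceeded NC2 by a small margin, and the log2 difference was 0.30 (SE 0.14, limma p = 0.0694, exact permutation p = 0.0571, adjusted p = 0.915). It was 0.17 without NC3, 0.19 in edgeR, 0.15 in DESeq2 and 0.16 when scaled by median of ratios. Its relatives did not share the separation. Hnrnpu, the scaffold attachment protein, was at 905, 551 and 694 RPM against 579, 532, 905 and 710.3 RPM, a log2 difference of -0.07 (-0.71 to 0.56). Hnrnpul1 was at 247, 253 and 88.9 RPM against 171, 179.7, 173 and 131 RPM, with every hypercapnia value between NC3 and the other 2 normocapnia libraries. Its log2 difference was -0.13 with all libraries and -0.62 without NC3, where it passed the call.

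The F and H proteins bind runs of guanines. Hnrnph2, which lies on chromosome X, was at 68.3, 72.8 and 60.7 RPM in normocapnia (67.3 ± 6.10, SD, n = 3) and 83.1, 73.0, 77.5 and 71.4 RPM in hypercapnia (76.2 ± 5.23, SD, n = 4). HC4 fell just under NC2. The log2 difference was 0.18 (SE 0.08, limma p = 0.0746, exact permutation p = 0.114, adjusted p = 0.915), with the narrowest interval of the 26 members. It was 0.11 without NC3, 0.06 in edgeR, 0.02 in DESeq2 and 0.04 with median-of-ratios scaling. Hnrnph1 was at 511, 236 and 321 RPM (356 ± 141, SD, n = 3) against 231, 184, 332 and 299 RPM (261 ± 66.6, SD, n = 4). NC1 was the highest library for Hnrnph1 and the other values overlapped, with a log2 difference of -0.41 (SE 0.33, limma p = 0.273, exact permutation p = 0.343, adjusted p = 0.915). It was -0.11 without NC1, -0.25 without HC2 and -0.67 without NC2. Hnrnph3 was at 58.0, 36.5 and 134 RPM against 38.6, 38.5, 61.7 and 49.2 RPM, and its log2 difference of -0.51 was 0.00 without NC3. Hnrnpf differed by -0.15 (-0.66 to 0.36).

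The A/B family showed the widest single range. Hnrnpa0, which binds AU-rich elements, was at 108 and 80.9 RPM in NC1 and NC2 but at 2.96 RPM (43 reads) in NC3, a 36.5-fold range, and at 63.0, 48.9, 42.1 and 51.3 RPM in hypercapnia. The 4 hypercapnia values lay between NC3 and the other 2 normocapnia libraries. The log2 difference was 0.66 (SE 1.23) over all libraries, -0.87 without NC3, where it passed the call, and 1.52 without NC1. Hnrnpa2b1, a reader of sorting motifs in RNA, was at 253, 158 and 387 RPM against 195, 183, 263 and 175 RPM, a difference of -0.31 (-1.13 to 0.52). Hnrnpab, with the highest mean RPM of the members (1009 RPM), was at 1357, 742 and 1016 RPM in normocapnia (1039 ± 308, SD, n = 3) and 838, 762, 1208 and 1139.9 RPM in hypercapnia (987 ± 220, SD, n = 4). The groups of Hnrnpab overlapped, with a log2 difference of -0.06 (SE 0.27, limma p = 0.84, exact permutation p = 0.914, adjusted p = 1).

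The next highest means in RPM were those of Hnrnpdl and Hnrnpl. Hnrnpdl, a close relative of the AU-rich element binding factor Hnrnpd, was at 1464, 719 and 509.9 RPM (897 ± 502, SD, n = 3) against 824, 749, 930.2 and 1007 RPM (878 ± 114, SD, n = 4). Its hypercapnia values lay inside the normocapnia range, with a log2 difference of 0.10 (SE 0.37, limma p = 0.794, exact permutation p = 0.743, adjusted p = 1). Hnrnpl, which binds CA repeats, was at 1296, 739 and 637 RPM (891 ± 355, SD, n = 3) against 596, 637, 903 and 745 RPM (720.2 ± 137, SD, n = 4). NC1 was the highest library for Hnrnpl and the difference was -0.25 (SE 0.29, limma p = 0.417, exact permutation p = 0.571, adjusted p = 0.915). Of the remaining members, Hnrnpd differed by 0.28 (-0.60 to 1.16), Hnrnpll by -0.06 (-0.52 to 0.40), Hnrnpm by 0.20 (-0.66 to 1.07) and Hnrnpr by 0.49 (-0.95 to 1.93). Hnrnpr, which resembles the RNA transport factor Syncrip, was at 169, 89.2 and 29.6 RPM in normocapnia, while its hypercapnia values of 102, 101, 113 and 118 RPM lay close together.

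Single normocapnia libraries set the direction for many members. NC3 was the lowest library for 14 of 26 members (53.8%), beside 49.5% of all genes averaging 10 RPM or more, and NC1 was the highest for 14 of 26 (53.8%), beside 30.3%. Leaving out NC3 turned the sign of the log2 difference in 13 of 26 members and leaving out NC1 turned it in 6. The share of all genes whose sign turned is not given here. The median over all genes averaging 10 RPM or more also moved, from 0.13 to -0.07 without NC3 and to 0.27 without NC1. Without NC3 there were 10 members above 0 and 16 below, and without NC1 there were 19 above and 7 below. NC1 also held the highest sums of satellite cell markers (3611 RPM) and of 7 proliferation genes (1048 RPM), against 237 and 96 RPM in NC2 and 163 and 106 RPM in NC3. In hypercapnia the proliferation sum was 443 to 1011 RPM, and all 7 genes had a difference above 0 (median 1.60) with 0 of 7 called by limma and 0 at an unadjusted p under 0.05. The part of cell composition and proliferation in the values of the splicing factors was not tested.

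**Figure D3:**
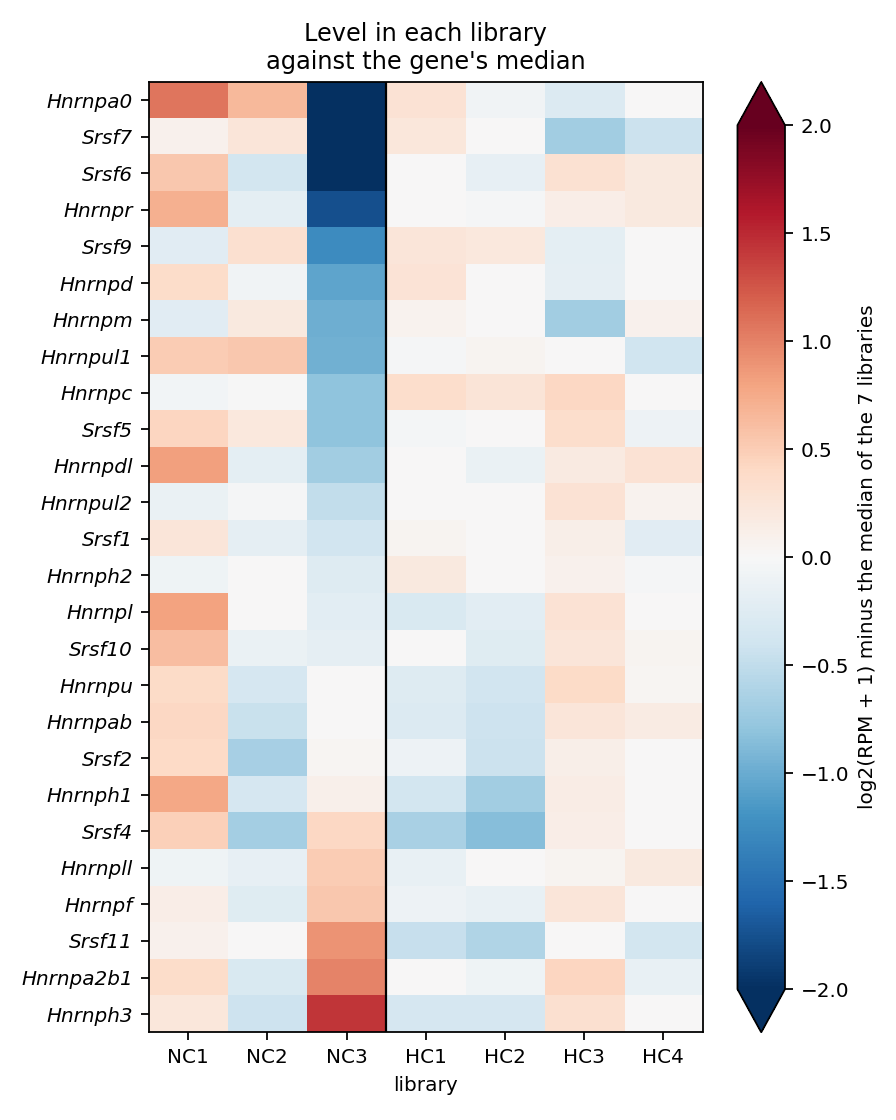
Log2 deviation of each member from its median over the 7 libraries, with members as rows and libraries as columns. NC3 is the lowest library for 14 of the 26 members and NC1 the highest for 14.

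**Figure D4:**
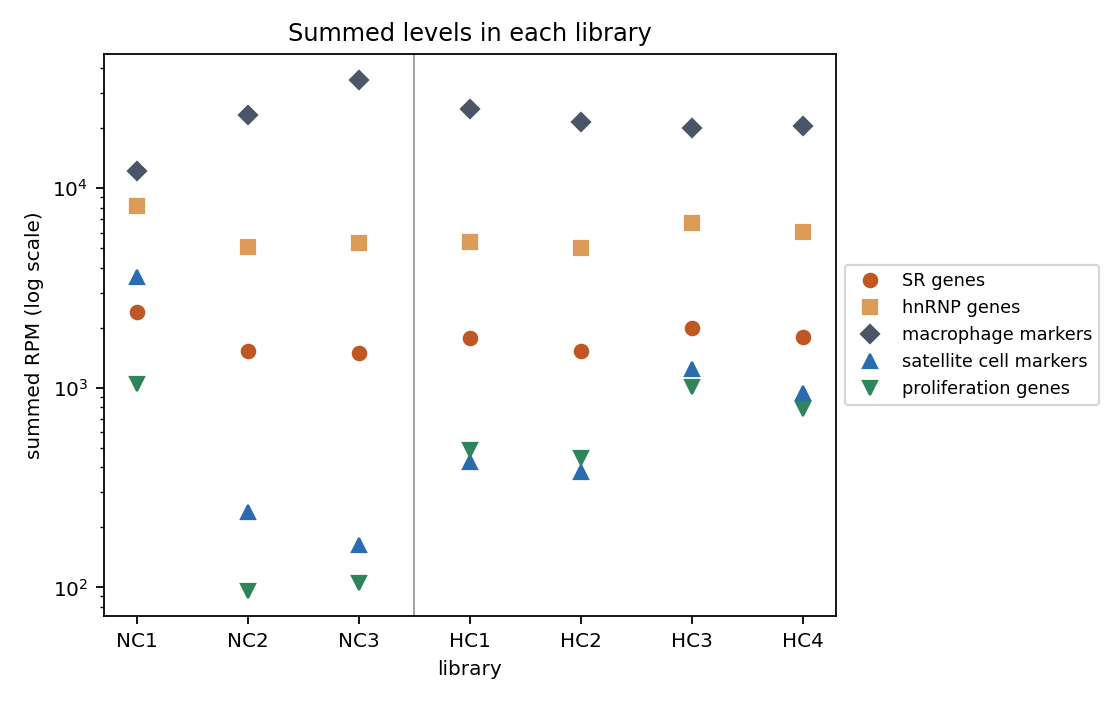
Summed RPM (log scale) of the SR genes, the hnRNP genes, and the macrophage, satellite cell and proliferation lists in each library. The SR sum stays between 1488 and 2398 RPM, while the satellite cell sum runs from 163 to 3611 RPM and is highest in NC1.

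The SR genes summed to 1807 ± 512 RPM (SD, n = 3) in normocapnia and 1772 ± 183 RPM (SD, n = 4) in hypercapnia. The hnRNP genes summed to 6181 ± 1673 RPM (SD, n = 3) and 5778 ± 749 RPM (SD, n = 4). Together the members took 0.655% to 1.05% of the reads of a library, and both sums overlapped between the groups.

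Since Xist divided the libraries within both groups, each difference was also fitted with the presence of Xist as a covariate, an alternative chosen after the data were seen. Srsf11 (log2 difference -0.78, limma adjusted p = 0.326) and Hnrnpc (0.61, limma adjusted p = 0.544) then passed the call, 2 of 26 members, beside 11.3% of all genes averaging 10 RPM or more. Srsf11 (lower) and Hnrnpc, Hnrnpul2 and Hnrnph2 (higher) had groups that were apart in the same direction in both kinds of library, 4 of 26 (15.4%), beside 21.9% of all genes averaging 10 RPM or more. Hnrnpul2 differed by 0.08 with Xist and by 0.67 without, and Hnrnph2 by 0.14 and 0.29. The normocapnia side of the libraries without Xist was NC3 alone.

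The genes that work with these factors were read from lists of kinases, partners and core components. Beside the counts of calls in these lists stand the shares of all genes averaging 10 RPM or more that passed the same call, 5.54% in limma, 7.91% in edgeR and 10.4% in DESeq2, and in lists of 9 to 31 genes a count of 1 or 2 is not read as particular to the list. An unadjusted limma p under 0.05 was found for 1 gene of the kinase and import list, 3 SR-related, 1 hnRNP-related, 3 spliceosome core, 2 tissue regulator and 1 decay gene. The share of all genes at this p alone is not given here. When 1 library was left out, limma called 0 to 2 kinase and import, 0 to 2 SR-related and 0 to 4 hnRNP-related genes. It called 0 to 3 spliceosome core, 0 to 5 tissue regulator and 0 to 1 decay genes. SR proteins are phosphorylated by the SRPK and CLK kinases, which governs their entry into the nucleus and their release from speckles, and Tnpo3 imports them. Of 9 genes for SR kinases and import, limma called 1, Clk1, lower in hypercapnia, and edgeR and DESeq2 each called 2. Clk1 was at 130.0, 112 and 168 RPM in normocapnia and 72.7, 70.0, 94.4 and 87.9 RPM in hypercapnia, without overlap. The log2 difference was -0.73 (SE 0.18, limma p = 0.00747, exact permutation p = 0.0571, adjusted p = 0.809), and -0.58 without NC3, where the call was lost. Clk2, which limma did not call, was at 107, 86.0 and 242 RPM against 68.4, 67.2, 95.3 and 88.2 RPM, a log2 difference of -0.72 (SE 0.39, limma p = 0.116, exact permutation p = 0.171). Clk2 passed the call in edgeR (-1.14), edgeR without a filter (-1.10), DESeq2 (-1.20) and limma with Xist as a covariate (-0.85), and was -0.28 without NC3. In this list 3 genes had a difference above 0 and 6 below, with a median of -0.05 that was -0.19 with median-of-ratios scaling, -0.27 without NC3 and -0.08 without NC1.

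Of 17 other SR-related proteins, which carry arginine and serine repeats but differ in build, 5 had a difference above 0 and 12 below (median -0.26, which was -0.40 with median-of-ratios scaling, -0.33 without NC3 and -0.10 without NC1). Pnn, a nuclear speckle protein that binds SR proteins, was the gene limma called, at 150.0, 118 and 268 RPM against 89.5, 78.3, 100.2 and 86.5 RPM (log2 difference -0.92, SE 0.29, limma p = 0.021, exact permutation p = 0.0571, adjusted p = 0.915). The difference of Pnn was -0.59 without NC3. Its call was lost without HC2 (-0.87) and with median-of-ratios scaling (-1.07), and edgeR and DESeq2 each called 2 genes of the list. Son, a speckle scaffold, was at 663, 556 and 571 RPM against 441, 421, 529 and 484 RPM. Its groups did not overlap, and its difference of -0.35 (SE 0.10, limma p = 0.0178, exact permutation p = 0.0571) stayed under the fold needed for a call.

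Of 19 RNA-binding proteins related to hnRNPs under other names, 12 had a difference above 0 and 7 below, with 0 called by limma or edgeR, 2 by DESeq2, 1 at an unadjusted limma p under 0.05, and a median of 0.16 that was 0.02 with median-of-ratios scaling, -0.26 without NC3 and 0.37 without NC1. Ptbp1, the polypyrimidine tract binding protein, was at 121, 144 and 150.2 RPM against 99.7, 103, 120.0 and 89.0 RPM, without overlap (log2 difference -0.42, SE 0.13, limma p = 0.017, exact permutation p = 0.0571). Ewsr1 was at 529.7, 385 and 708 RPM against 275, 314, 468 and 348 RPM (-0.61, SE 0.27, limma p = 0.0717, exact permutation p = 0.114), and it passed the call in DESeq2 (-0.88), with the replicate number as a block (-0.61), with Xist as a covariate (-0.69) and without NC2 (-0.83) or HC3 (-0.75), and was -0.39 without NC3.

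Of 31 spliceosome core genes, 21 had a difference above 0 and 10 below (median 0.18, which was 0.04 with median-of-ratios scaling, -0.16 without NC3 and 0.36 without NC1). Sf3b1, the branch point recognition subunit, was called by limma, at 439.7, 344 and 649 RPM against 230.4, 230.0, 372 and 299 RPM (log2 difference -0.73, SE 0.28, limma p = 0.0449, exact permutation p = 0.114, adjusted p = 0.915). The call of Sf3b1 was lost without NC1, NC3, HC1, HC2 or HC4, with differences of -0.77 to -0.49, and with a filter at 1 RPM (-0.73), median-of-ratios scaling (-0.88) or quantile normalization (-0.66). In this list edgeR called 1 gene and DESeq2 called 2. Sf1, which binds the branch point first, was at 272, 276 and 292 RPM against 185, 197, 263 and 216 RPM, without overlap and with a difference of -0.39 (SE 0.13, limma p = 0.0248, exact permutation p = 0.0571) under the fold threshold.

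Of 19 tissue splicing regulators, 8 had a difference above 0 and 11 below (median -0.03, which was -0.13 with median-of-ratios scaling, -0.21 without NC3 and 0.08 without NC1). By limma 0 were called and 2 had an unadjusted p under 0.05, while edgeR and DESeq2 each called 2. Mbnl2, a muscleblind protein, was at 107, 104 and 102 RPM against 67.2, 76.1, 74.2 and 65.1 RPM. Its difference of -0.56 (SE 0.06, limma p = 0.000202, exact permutation p = 0.0571, adjusted p = 0.363) was just under a 1.5-fold change. Mbnl2 passed the call with median-of-ratios scaling (-0.70), in edgeR (-0.69), in edgeR without a filter (-0.67), in DESeq2 (-0.73) and without HC2 (-0.59). Celf1 was at 125, 93.3 and 107 RPM against 86.3, 93.0, 89.2 and 91.8 RPM (-0.26, SE 0.10, limma p = 0.0467, exact permutation p = 0.0571). The difference of Celf1 was -0.15 without NC1.

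The decay factors that remove poison exon transcripts were measured as 10 genes, of which 5 had a difference above 0 and 5 below (median 0.03, which was -0.10 with median-of-ratios scaling, -0.38 without NC3 and 0.25 without NC1). Smg8, a regulator of the Smg1 kinase, was the gene limma called, at 24.3, 35.1 and 41.6 RPM against 18.1, 18.9, 24.6 and 21.4 RPM, with HC3 just above NC1 (log2 difference -0.65, SE 0.21, limma p = 0.0224, exact permutation p = 0.114, adjusted p = 0.915). The call of Smg8 was lost without NC2, NC3, HC1 or HC2, with differences of -0.61 to -0.48, and with a pseudocount of 5 (-0.57), a filter at 1 RPM (-0.65), median-of-ratios scaling (-0.79) or quantile normalization (-0.72). In this list of 10, edgeR and DESeq2 each called 2 genes, beside 7.91% and 10.4% of all genes averaging 10 RPM or more. Upf2 was at 47.2, 42.4 and 105 RPM against 34.4, 30.2, 41.5 and 38.5 RPM, without overlap (-0.71, SE 0.34, limma p = 0.0865, exact permutation p = 0.0571). Upf2 passed the call in edgeR (-1.12), edgeR without a filter (-1.08), DESeq2 (-1.18), limma with Xist as a covariate (-0.83) and without NC2 (-0.96), and was -0.31 without NC3.

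Annotation shows how many members have the isoforms that a single amplicon cannot resolve. In the mouse gene annotation (GENCODE M21), 16 of 27 members (59.3%) had at least 1 transcript marked for nonsense-mediated decay, against 31.3% of 7923 protein-coding genes averaging 10 RPM or more. The share was 80% for SR genes (8 of 10) and 47.1% for hnRNP genes (8 of 17). A retained intron was annotated for 19 of 27 members (70.4%, against 64.9%). Srsf11 had 19 annotated transcripts, of which 3 were marked for decay and 11 as retained introns. The median number of transcripts was 7 in the members and 6 in the protein-coding genes.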

How the data were processed

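Cells were profiled with the Ion AmpliSeq Transcriptome Mouse panel, which amplifies a short stretch of each gene, on an Ion GeneStudio S5 Plus. The deposited values are RPM (reads per 1000000) that the authors computed per amplicon, and Transcriptome Analysis Console is named in the processing notes of the submitters. Aligner and genome build were not given in the sources used here. Whole reads were recovered from the RPM steps (100% of values within 0.05 reads of a whole number).

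RPM were tested as log2(RPM + 1) with limma 3.58.1 (R 4.3.3) over all 23930 genes, without a filter, hypercapnia against normocapnia. Fold changes on this scale understate the change of low genes. A call was an unadjusted p under 0.05 with a fold above 1.5, and Benjamini-Hochberg values over all genes stand beside it. Exact two-sided permutation tests over the libraries were run for named genes. Named genes were the called members, the 6 smallest p, the 3 largest means, members without overlap, and of each related list the 2 smallest p among genes averaging 10 RPM or more. Members and lists were chosen with earlier results of these data known. edgeR 4.0.16 and DESeq2 1.42.0 on the recovered reads were among 16 other settings tried, and 1 more was added after the data were seen. The fits were tested on simulated reads with 200 changed genes, at set dispersions (the spread between libraries beyond counting error). At a dispersion of 0.1, an adjusted p under 0.05 found 0% of 2-fold and 9.5% of 4-fold changes in limma. In edgeR it found 16% and 99.5%. At 0.02 it found 10% and 98.5% in limma, and 99% and 100% in edgeR. The call found 65% to 100% of the changes across these settings. RefSeq and GENCODE M21 gave promoters and transcripts. Equal replicate numbers did not pair the libraries.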

Additional observations from a re-analysis of the deposited data

Results flagged for a closer look

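Hnrnpm in HC3 stood apart from the other hypercapnia libraries, at 31.8 RPM against 52.0 to 55.2 RPM. The gap took 0.86 of the range of the 4 libraries, over the 95% critical value of Dixon's test. With 26 members examined, chance flags about 1 in 20 groups.

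Several members had different hypercapnia differences in libraries with Xist and in those without. The normocapnia side without Xist was the single library NC3. An interaction fit in limma has to assume that NC3 varies like the other libraries. The median log2 SD of the members was 0.58 in normocapnia and 0.21 in hypercapnia, so no p is given and the values are a description. For Hnrnpa0 the log2 difference was -0.74 with Xist and 3.58 without, a gap of -4.33. For Srsf7 it was -0.06 and 2.46, a gap of -2.51. For Srsf6 it was -0.16 and 2.63 (a gap of -2.79), for Hnrnpr -0.27 and 1.92 (-2.19) and for Hnrnpdl -0.38 and 0.92 (-1.31). The largest gap of the other sign was that of Hnrnph3 (-0.25 and -1.27, a gap of 1.02). In Hnrnpul1 (-0.51 and 0.75, a gap of -1.27), Srsf5 (-0.34 and 0.93, a gap of -1.27) and Hnrnpl (-0.67 and 0.36, a gap of -1.03), as in Hnrnpa0, the hypercapnia libraries lay below the normocapnia libraries where Xist was present and above NC3 where it was not. This was seen in 4 of 26 members (15.4%) and in 20.8% of all genes averaging 10 RPM or more. The presence of Xist and the library NC3 cannot be told apart here.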

How the results depend on the processing

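Over all genes, limma called 615. edgeR without a filter called 1049, DESeq2 1304 and the fit with Xist as a covariate 1210, while leaving out 1 library gave 376 to 1990 calls (376 without HC2, 385 without HC1, 1205 without NC2 and 1990 without NC1). Among the members the count of 1 (Srsf11) became 0 with a pseudocount of 5 (Srsf11 at -0.66), with a filter at 1 RPM (-0.69), with quantile normalization (-0.66) or when scaled by median of ratios (-0.83), against -0.69 in the fit reported, so that the fold stayed above 1.5 and the p passed over 0.05. The count became 2 with Xist as a covariate, and 0 to 2 when 1 library was left out. The cause was not tested. Srsf11 kept its direction under all 17 alternatives and was called under 8.

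Same-numbered libraries deviated with correlations of -0.35, 0.50 and -0.04, so the numbers did not pair them. A fit with the replicate block on the 6 libraries that share numbers called 598 genes, against 477 in the same libraries without it. It called 1 member (Srsf11), against 0 in the same libraries without it.

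Of the 26 members averaging 10 RPM or more, 8 kept their sign under all 17 alternatives and 18 did not, while Srsf12 had a value under 15 of them. The log2 differences that turned were, with median-of-ratios scaling, Hnrnpdl -0.041, Srsf1 -0.053 and Srsf5 -0.039, with edgeR, Hnrnpdl -0.035, Srsf1 -0.0055, Srsf5 -0.010 and Hnrnpa0 -0.20, with edgeR without a filter, Hnrnpdl -0.038, Srsf5 -0.012 and Hnrnpa0 -0.23, and with DESeq2, Hnrnpdl -0.076, Srsf1 -0.046, Srsf5 -0.046 and Hnrnpa0 -0.22. Leaving out 1 library at a time gave log2 differences of Hnrnpa0 -0.87 to 1.52, Hnrnpa2b1 -0.63 to 0.012, Hnrnpab -0.28 to 0.16, Hnrnpd -0.13 to 0.59, Hnrnpdl -0.23 to 0.53, Hnrnpf -0.34 to 0.049, Hnrnph3 -0.92 to 0.0024, Hnrnpl -0.46 to 0.051, Hnrnpll -0.18 to 0.15, Hnrnpm -0.12 to 0.47, Hnrnpr -0.18 to 1.05, Hnrnpu -0.25 to 0.11, Hnrnpul1 -0.62 to 0.13, Srsf1 -0.050 to 0.26, Srsf10 -0.23 to 0.17, Srsf2 -0.31 to 0.21, Srsf5 -0.27 to 0.34 and Srsf7 -0.40 to 1.24. The cause was not tested. The values of the 26 members rest on 43 reads or more, while Srsf12 could not be read. NC3 had the fewest reads (14527445) and the fewest genes at 1 RPM or more (10619, against 11322 to 13932 elsewhere). Its 10 highest genes took 16.6% of its reads, against 8.36% to 12.1% elsewhere. The part of this in the values of the members was not tested.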
